A study of Bos taurus and Sus scrofa with 10 samples.

Results

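The genes described here encode keratins of simple epithelia (KRT8, KRT18, KRT19 and KRT7) and proteins of the desmosome (DSP, DSC2, DSG2, JUP, PKP2 and PPL), followed by RNA sequencing through preimplantation development of cow and pig. They were taken by name: a table row was used where its gene symbol equalled 1 of the 10 listed symbols, with no threshold on its values. In cow 10 of 10 symbols were found among 22845 gene rows, and in pig 8 of 10 among 21867 rows. KRT19 and DSC2 were matched to no pig row under these symbols and are not analysed in pig.

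Cow (Bos taurus) and pig (Sus scrofa) were each sampled as oocytes, 2-4 cell embryos, 8-16 cell embryos, morulae and blastocysts. Each stage of a species was 1 library of total RNA, 10 libraries in all, so stages could not be compared against the spread of replicates and no p-value is given. The sources used here give no breed, treatment or culture condition, and no number of oocytes or embryos per library. They name no separation of trophectoderm from inner cell mass, so a blastocyst library is taken as RNA of whole embryos. In such bulk samples, more cells of a type and more RNA per cell cannot be told apart.

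Keratins form intermediate filaments only as pairs of a type II keratin (such as KRT8 or KRT7) with a type I keratin (such as KRT18 or KRT19). The filaments are anchored at desmosomes, cell-cell junctions in which the cadherins of the desmocollin (DSC) and desmoglein (DSG) families bridge the membranes. Inside the cell the armadillo proteins plakoglobin (JUP) and plakophilin (PKP2) bind the cadherin tails, and the plakins desmoplakin (DSP) and periplakin (PPL) bind keratin. In mammalian embryos KRT8, KRT18 and desmosomes are textbook features of the trophectoderm, the outer epithelium of the blastocyst that later forms placenta.

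Levels are given as reads per 1000000 reads of the library (RPM). They are not divided by gene length, so they compare a gene between stages and not genes with each other. Intervals are 95% Wilson intervals from the recovered read counts, and 3 reads are taken as the floor, the one-sided 95% limit that 0 reads allow. The two-sided Wilson interval of 0 reads reaches 3.84 reads, so a lower bound computed against the floor would be smaller against that limit. Amplified reads are not independent molecules, so intervals and floors cover counting error only. Changes are differences of log2(RPM + 1), a scale on which genes near the floor appear to change less than their RPM did. A comparison took in genes that reached 1 RPM in at least 1 of its stages, and a difference of at least 2 (4-fold on that scale) was called a change. Folds are ratios of RPM with exact 95% intervals, or lower bounds against the floor where the library with the lower level had 0 reads.

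The libraries held between 3002751 reads (pig morula) and 14182046 reads (cow blastocyst), so the floor lay between 0.212 and 0.999 RPM. Reads of mitochondrially encoded genes made up 2.74% to 10.7% of the earlier cow libraries and 30.2% of the cow blastocyst library. In pig they made up 6.06% to 16.3% of the earlier libraries and 18.6% of the blastocyst library. The deepest cow library and the highest mitochondrial shares of both species thus belong to the blastocyst. With scaling to the reads of all other genes, the numbers of members called higher in the comparisons with the blastocyst were 9 and 9 in cow and 6 and 6 in pig, the same as without it.

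KRT8 and KRT18 showed the steepest differences among the members. KRT8, the type II keratin of the pair, stood in cow at 1.01 RPM in the oocyte (5 reads), 0.225 RPM in the 2-4 cell embryo (1 read), 0 RPM in the 8-16 cell embryo, 0.513 RPM in the morula (2 reads) and 1490.3 RPM in the blastocyst (interval 1470.4 to 1510.6). The blastocyst stood apart from all 4 earlier stages, whose neighbouring intervals overlapped. The ratio of blastocyst to morula was 2906-fold (804 to 23994), a log2 change of 9.95, and it rests on the 2 morula reads. In pig KRT8 had 0 reads in the oocyte, the 2-4 cell and the 8-16 cell embryo, 1 read in the morula (0.333 RPM) and 3629.4 RPM in the blastocyst (3568.9 to 3690.9). In pig the blastocyst was the only library with KRT8 above the floor, whereas in cow the oocyte also passed it. The pig level was at least 4086-fold higher in the blastocyst than in the oocyte, a log2 change of 11.49, while the ratio to the single morula read was 10898-fold with an interval from 1956 to 430487.

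KRT18, the type I partner, had 0 reads in the cow oocyte, 2-4 cell and 8-16 cell libraries, 0.769 RPM in the morula (3 reads, at the floor) and 1020.7 RPM in the blastocyst (1004.2 to 1037.4). It rose from morula to blastocyst by 9.17 on the log2 scale, a ratio of 1327-fold (454 to 6434). In pig KRT18 had 0 reads in the oocyte and the 2-4 cell embryo, 0.632 RPM in the 8-16 cell embryo (2 reads), 4.66 RPM in the morula (14 reads, 2.78 to 7.83) and 2681.4 RPM in the blastocyst (2629.4 to 2734.4). The pig morula was the only library before the blastocyst in which KRT18 passed the floor. Its difference from the 8-16 cell embryo, 1.80 on the log2 scale, was not called. With a pseudocount of 0.1 it was 2.70, past the threshold. From morula to blastocyst pig KRT18 rose 575-fold (343 to 1052), a log2 change of 8.89.

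KRT19 and KRT7 changed less. KRT19, a type I keratin, stood in cow at 2.23 RPM in the oocyte (11 reads), 3.38 RPM in the 2-4 cell embryo (15 reads), 0.920 RPM in the 8-16 cell embryo (5 reads), 0 RPM in the morula and 61.1 RPM in the blastocyst (57.2 to 65.3). It thus had reads above the floor in the oocyte and the cleavage stages, none in the morula, and its highest level in the blastocyst. The rise from the morula was at least 79.5-fold (log2 change 5.66) and from the oocyte 27.4-fold (15.2 to 55.1, log2 change 4.27). KRT7, a type II keratin, stood in cow at 0.406, 0.901, 0 and 1.03 RPM in the 4 earlier stages (at most 4 reads each) and at 23.8 RPM in the blastocyst (21.4 to 26.5). The rise from the morula was 23.2-fold (8.99 to 85.8), a log2 change of 3.62. In pig KRT7 had 0 reads in 4 libraries and 1 read in the blastocyst (0.268 RPM, interval up to 1.52), so it was not above the floor at any stage there and was not compared. The same 5 stages therefore gave a blastocyst level above the floor for KRT7 in cow and none in pig. Each species has a table with its own scaling, and the difference between the species was not tested.

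**Figure D1:**
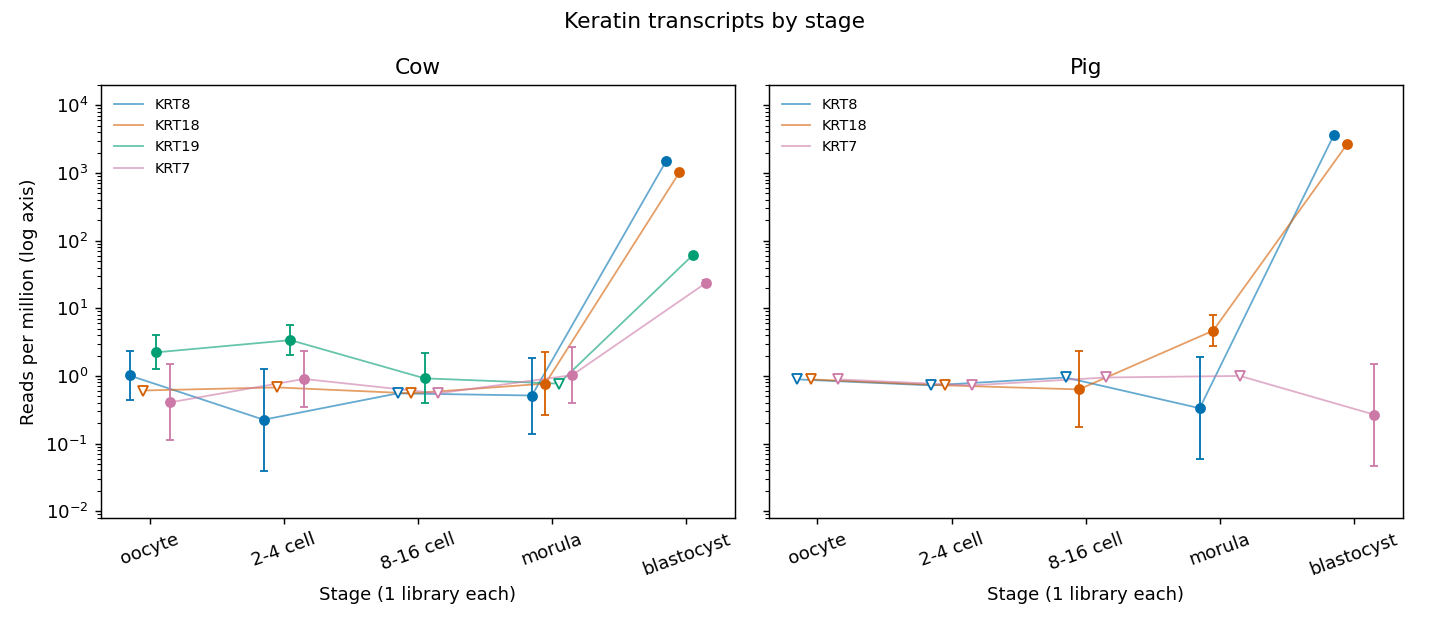
Levels of KRT8, KRT18, KRT19 and KRT7 (RPM, log axis) against stage in cow (left) and pig (right), 1 library per point, with 95% Wilson bars. Open triangles mark 0 reads, drawn at the 3-read floor of the library. Up to and including the morula KRT8 and KRT18 lie at no more than 4.66 RPM (KRT18 in the pig morula). In the blastocyst libraries they lie between 1020.7 and 3629.4 RPM. KRT7 reached 23.8 RPM in the cow blastocyst and 0.268 RPM in the pig blastocyst.

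The genes of the KRT8 and KRT18 pair are neighbours in both tables. Coordinates are those of the deposited tables. The submitters' processing notes name the builds UMD3.1 and Sscrofa11.1, taken here as those of cow and pig. KRT18 lay on chromosome 5 in cow at 27171925 to 27175575 on the minus strand, and KRT8 at 27213750 to 27221177 on the plus strand. In pig KRT8 lay on chromosome 5 at 18170354 to 18180215 on the minus strand and KRT18 at 18217575 to 18222833 on the plus strand. The rows were 38174 bases apart in cow and 37359 bases apart in pig, with 0 other rows between them and on opposite strands in each species. KRT7 lay on the same chromosome, 607804 bases from KRT8 in cow with 28 rows between, and 599212 bases away in pig with 25 rows between. KRT19 lay on cow chromosome 19 at 42366660 to 42370493 and JUP at 42602486 to 42626600, 231992 bases apart with 8 rows between. How reads that map to several places were counted is not given in the sources used here. Keratins have processed pseudogenes with near-identical sequence, so keratin levels are uncertain to that extent.

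The desmosomal cadherins DSC2 and DSG2 were above the floor at stages before the blastocyst. DSC2, a desmocollin, had 0 reads in the cow oocyte and 2-4 cell embryo and stood at 9.94 RPM in the 8-16 cell embryo (54 reads), 20.3 RPM in the morula (79 reads) and 95.5 RPM in the blastocyst (90.6 to 101). It climbed over 3 stages whose intervals did not overlap. The rise into the 8-16 cell embryo was at least 14.7-fold (log2 change 3.19), and that from morula to blastocyst was 4.72-fold (3.76 to 5.99, log2 change 2.18). With a pseudocount of 5 both fell short of the threshold, at 1.52 and 1.99.

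DSG2, the desmoglein of simple epithelia, stood in cow at 8.52 RPM in the oocyte, 2.93 RPM in the 2-4 cell embryo, 12.5 RPM in the 8-16 cell embryo, 107 RPM in the morula and 282 RPM in the blastocyst (273 to 291). The difference from the 2-4 cell to the 8-16 cell embryo, 4.27-fold (2.34 to 8.43, log2 difference 1.78), was not called, but passed the threshold with median-of-ratios scaling (2.06), scaling to non-mitochondrial reads (2.07) and a pseudocount of 0.1 (2.06). The step into the morula was called, 8.54-fold (6.60 to 11.2, log2 change 2.997). The difference from morula to blastocyst, 2.64-fold (2.38 to 2.92, log2 difference 1.39), was not called. In pig DSG2 had 0 reads in the oocyte, 0.967 RPM in the 2-4 cell embryo (4 reads), 0.316 RPM in the 8-16 cell embryo (1 read), 20.98 RPM in the morula (63 reads) and 515 RPM in the blastocyst (493 to 539). Both late pig steps were called, 66.4-fold into the morula (11.5 to 2665, from 1 read, log2 change 4.06) and 24.6-fold into the blastocyst (19.1 to 32.1, log2 change 4.55). The pig DSG2 row overlaps a 7SK row on the other strand. The use of strand in counting is not given in the sources used here, so reads of both cannot be told apart there.

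DSC3 and DSG3 are cadherins better known from stratified epithelia. Cow DSC3 stood at 0, 0, 29.8, 24.9 and 0.0705 RPM from oocyte to blastocyst, the last being 1 read. It fell from morula to blastocyst by 4.60 on the log2 scale, 353-fold (61.8 to 14077), at the step at which cow DSC2 rose. Pig DSC3 stood at 0, 4.35, 6.95, 271 and 663 RPM and was at least 746-fold higher in the blastocyst than in the oocyte. Its morula to blastocyst difference, 1.29 on the log2 scale, was not called. The pig DSC3 row spans 102550 bases of chromosome 6, against 51160 bases for DSC3 and 36998 bases for DSC2 in cow, whose rows together reach over 107947 bases of chromosome 24. Whether the pig DSC3 row takes in reads of DSC2 was not tested. In cow the DSC2 and DSC3 rows summed to 0, 0, 39.8, 45.1 and 95.6 RPM. DSG3 stood at 0, 0, 2.02, 13.8 and 55.5 RPM in cow and at 0 in the 4 earlier pig libraries and 44.5 RPM in the pig blastocyst. From oocyte to blastocyst it rose at least 91.2-fold in cow and at least 50.1-fold in pig.

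**Figure D2:**
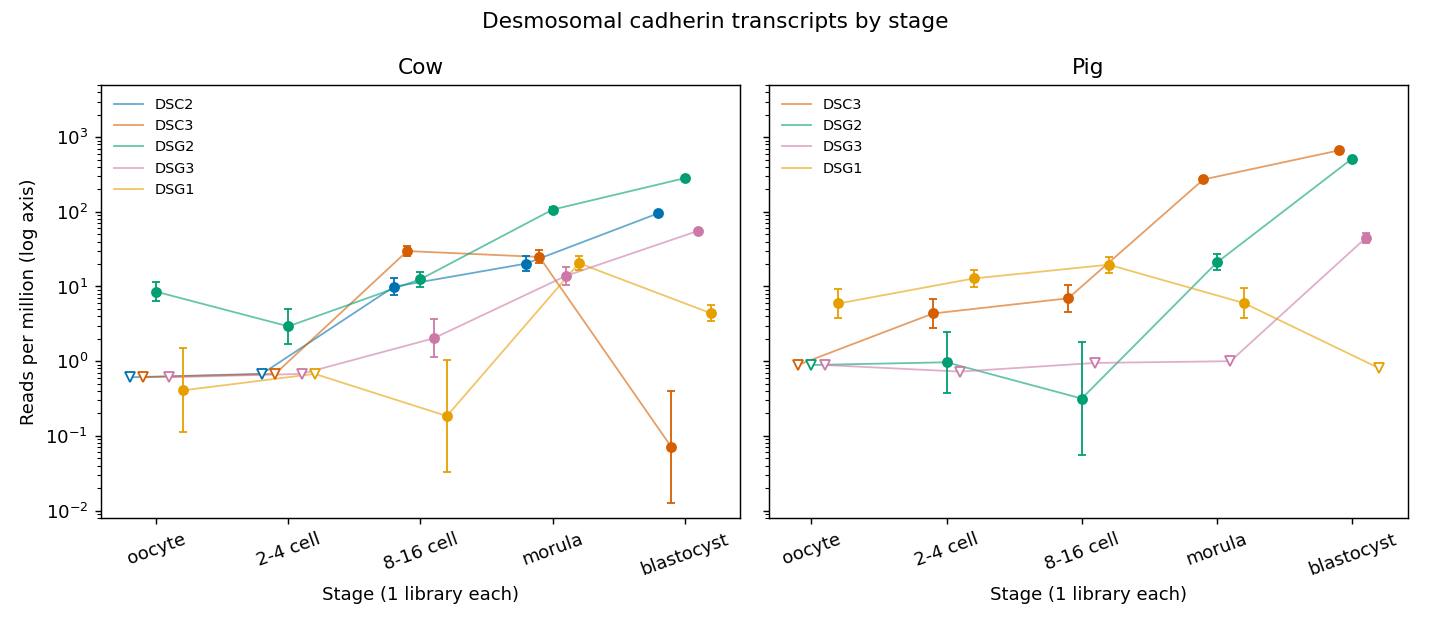
Levels of the desmosomal cadherins DSC2, DSC3, DSG2, DSG3 and DSG1 (RPM, log axis) against stage in cow (left) and pig (right), 1 library per point, with 95% Wilson bars. Open triangles mark 0 reads, drawn at the 3-read floor. In cow DSC2 climbs to 95.5 RPM while DSC3 drops to 1 read in the blastocyst. In pig DSC3 climbs to 663 RPM and DSC2 is not analysed.

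The armadillo proteins of the plaque rose at more than 1 step in 1 species each, JUP in cow and PKP2 in pig. JUP, plakoglobin, which joins desmosomal cadherins to desmoplakin, stood in cow at 0.406 RPM in the oocyte (2 reads), 0 RPM in the 2-4 cell embryo, 11.8 RPM in the 8-16 cell embryo (64 reads), 8.98 RPM in the morula (35 reads) and 97.5 RPM in the blastocyst (92.5 to 103). It rose at 2 separate steps, with overlapping intervals for the 8-16 cell embryo and the morula between them. The rise into the 8-16 cell embryo was at least 17.4-fold (log2 change 3.41, and 1.69 with a pseudocount of 5, short of the threshold). The rise into the blastocyst was 10.9-fold (7.77 to 15.7, log2 change 3.30). In pig JUP stood at 0.888 RPM (3 reads), 1.93 RPM, 6.95 RPM, 91.6 RPM and 292 RPM (275 to 310). Its called step was the one into the morula, 13.2-fold (8.53 to 21.4, log2 change 3.54), and the difference into the blastocyst, 3.19-fold (2.79 to 3.65, log2 difference 1.66), was not called.

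PKP2, plakophilin 2, which binds desmoplakin in the plaque, stood in cow at 11.8 RPM in the oocyte, 10.6 RPM in the 2-4 cell embryo, 27.98 RPM in the 8-16 cell embryo, 36.4 RPM in the morula and 158 RPM in the blastocyst (152 to 165). It was above the floor in each cow library, and the intervals of the 8-16 cell embryo and the morula overlapped. The morula to blastocyst rise was 4.35-fold (3.67 to 5.19, log2 change 2.09, and 1.98 with a pseudocount of 5, short of the threshold). In pig PKP2 had 0 reads in the oocyte and stood at 2.66, 8.53, 63.9 and 271 RPM (255 to 289) in the later stages. No neighbouring intervals of the 5 pig stages overlapped. The called pig steps were those into the morula, 7.50-fold (4.995 to 11.7, log2 change 2.77), and into the blastocyst, 4.24-fold (3.63 to 4.98, log2 change 2.07). From the oocyte PKP2 rose 13.5-fold in cow and at least 305-fold in pig.

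The plakins DSP and PPL were the only members above the floor in the oocyte libraries of both species. DSP, desmoplakin, the link from the plaque to keratin filaments, stood in cow at 24.3 RPM in the oocyte (120 reads), 45.1 RPM in the 2-4 cell embryo (200 reads), 4.79 RPM in the 8-16 cell embryo (26 reads), 11.5 RPM in the morula (45 reads) and 539 RPM in the blastocyst (527 to 551). No neighbouring intervals overlapped in its order of levels. DSP fell from the 2-4 cell to the 8-16 cell embryo, 9.41-fold (6.24 to 14.8, log2 change -2.99), and rose from morula to blastocyst 46.7-fold (34.9 to 64.1, log2 change 5.43). In pig DSP stood at 42.3, 33.1, 28.7 and 60.3 RPM in the 4 earlier stages and at 823 RPM in the blastocyst (795 to 853). The pig levels before the morula had overlapping neighbouring intervals, with no called drop at the 8-16 cell stage. The pig morula to blastocyst rise was 13.7-fold (11.8 to 16.0, log2 change 3.75). From oocyte to blastocyst DSP rose 22.1-fold in cow and 19.4-fold in pig.

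PPL, periplakin, stood in cow at 11.2 RPM in the oocyte (55 reads), 19.4 RPM in the 2-4 cell embryo (86 reads), 3.87 RPM in the 8-16 cell embryo (21 reads), 0 RPM in the morula and 7.90 RPM in the blastocyst (112 reads, 6.56 to 9.50). It was the member whose highest cow level was not in the blastocyst, and the intervals of oocyte and blastocyst overlapped. The drop into the 8-16 cell embryo was 5.01-fold (log2 change -2.07). It was not called with median-of-ratios scaling (-1.74), quantile normalisation (-1.83), scaling to non-mitochondrial reads (-1.94) or a pseudocount of 5 (-1.46). The 8-16 cell to morula difference of -1.98, at least 5.02-fold lower, was not called, and was called lower under 6 of the 11 alternatives. From the morula PPL rose at least 10.3-fold in cow (log2 change 2.85). In pig it stood at 2.66 RPM (9 reads), 0.967 RPM (4 reads), 1.58 RPM (5 reads), 0.333 RPM (1 read) and 7.24 RPM (27 reads, 4.98 to 10.5). The pig morula to blastocyst rise of 2.63 on the log2 scale, 21.7-fold with an interval from 3.58 to 890, rests on 1 morula read. With a pseudocount of 5 the late rise of PPL was 1.30 in cow and 1.20 in pig, short of the threshold.

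**Figure D3:**
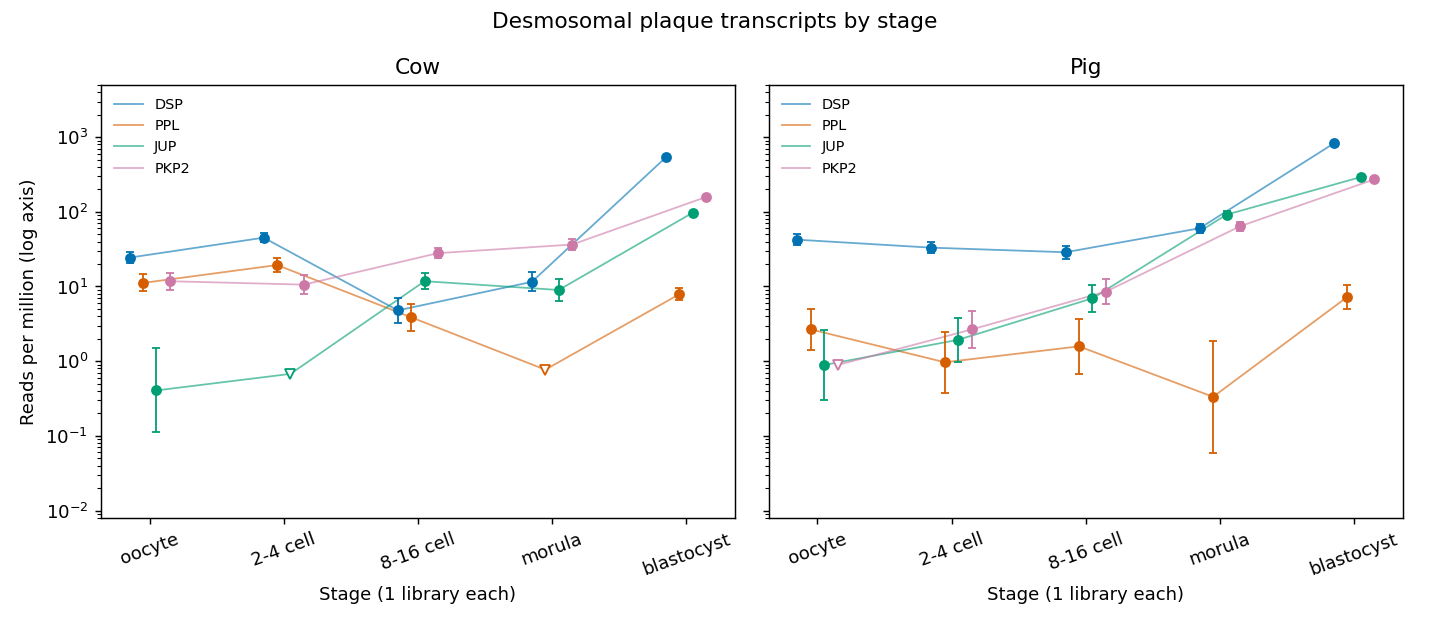
Levels of the plaque genes DSP, PPL, JUP and PKP2 (RPM, log axis) against stage in cow (left) and pig (right), 1 library per point, with 95% Wilson bars. Open triangles mark 0 reads, drawn at the 3-read floor. DSP is present from the oocyte on and reaches 539 RPM in the cow and 823 RPM in the pig blastocyst, with a cow minimum of 4.79 RPM at the 8-16 cell stage. PPL stays below 20 RPM in each library.

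The plaque and plakin genes lay apart from each other in both species. DSP lay on cow chromosome 23 at 47670503 to 47714288 and pig chromosome 7 at 4862565 to 4937363. PKP2 lay on chromosome 5 of both, at 77370781 to 77452340 in cow and 41424795 to 41509779 in pig. PPL lay on cow chromosome 25 at 3966800 to 4014117 and pig chromosome 3 at 37460881 to 37511876. Pig JUP lay on chromosome 12 at 20902395 to 20931205. DSG2 (25913549 to 25957997) and DSC2 (26340205 to 26377202) shared the cadherin cluster of cow chromosome 24, 382207 bases apart with 4 rows between, those of DSG3, DSG4, DSG1 and DSC1. Pig DSG2 lay on chromosome 6 at 115399611 to 115454339.

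Counted over the members, the step into the blastocyst held more called changes than any earlier step in each species. From oocyte to 2-4 cell embryo 6 members were compared in cow and 4 in pig, and 0 were called in either direction. Among all genes compared, 0.196% were higher and 0.178% lower in cow, and 3.26% higher and 2.17% lower in pig. From the 2-4 cell to the 8-16 cell embryo 7 cow members were compared, of which 2 rose (DSC2 and JUP) and 2 fell (DSP and PPL), beside 12.6% higher and 14.6% lower among all cow genes compared. With median-of-ratios scaling or scaling to non-mitochondrial reads, DSG2 joined those higher and PPL left those lower, which made 3 higher and 1 lower. In pig 4 members were compared at this step and 0 were called, beside 4.33% higher and 0.543% lower. From the 8-16 cell embryo to the morula 1 of 7 members rose in cow (DSG2) and 3 of 6 rose in pig (DSG2, JUP and PKP2), with 0 lower. All genes compared gave 6.67% higher and 5.15% lower in cow and 12.0% higher and 11.3% lower in pig.

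From morula to blastocyst 10 cow members were compared and 9 rose, with DSG2 not called, and 7 pig members were compared and 6 rose, with JUP not called. No member fell. Among all genes compared, 11.9% were higher and 11.5% lower in cow, and 13.8% were higher and 13.8% lower in pig. The median difference of the members compared was 3.46 in cow and 3.75 in pig, beside -0.11 over all genes in each species. From oocyte to blastocyst 9 of 10 compared members rose in cow and 6 of 7 in pig, with PPL not called in either (log2 difference -0.45 in cow and 1.17 in pig). All genes compared gave 21.8% higher and 18.4% lower in cow and 26.0% higher and 19.2% lower in pig. The median of the members was 4.65 in cow and 7.75 in pig, or 4.65 and 7.28 with genes of 0 reads set at the floor. Over all genes it was 0.18 in cow and 0.43 in pig. A gene at the floor in the earlier stage enters a comparison only through its later level, so these counts describe the members that were compared and support nothing beyond that.

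**Figure D4:**
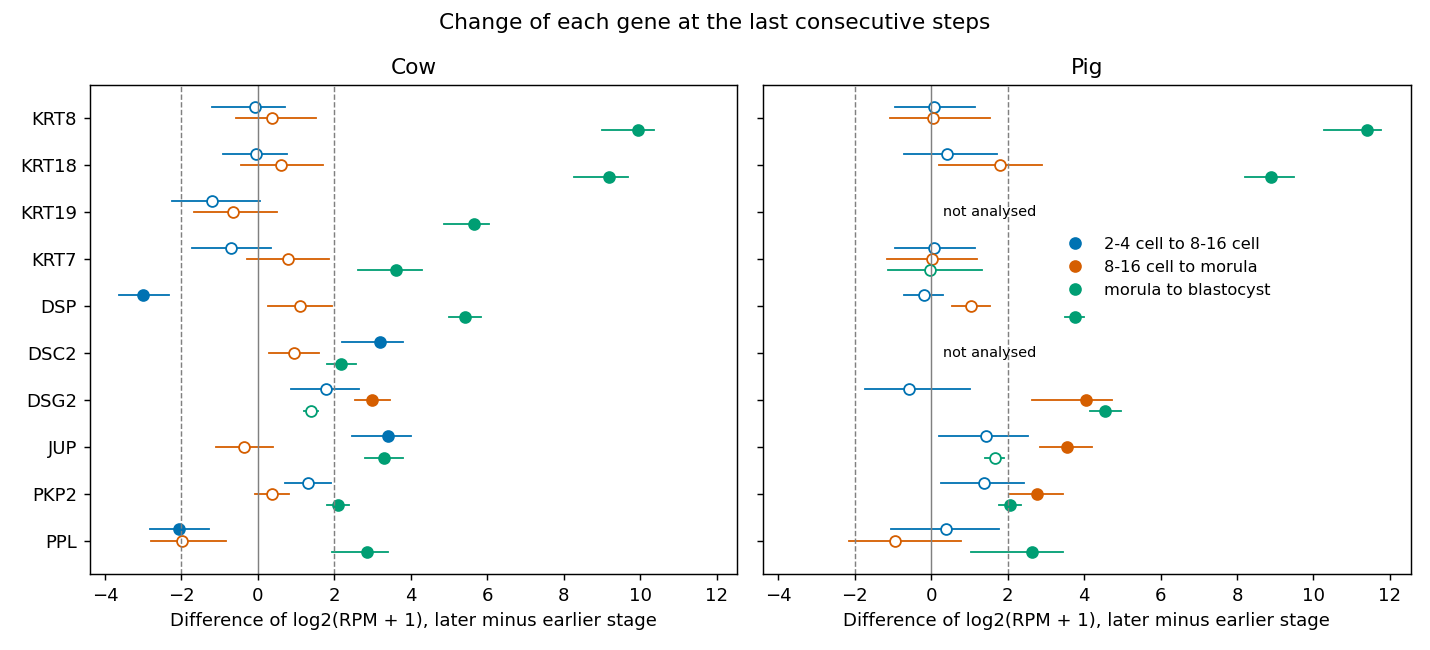
Difference of log2(RPM + 1), later minus earlier stage, of each member at the 3 later consecutive steps in cow (left) and pig (right). Filled points are called at an absolute difference of 2 (dashed lines), open points are not, and lines span the differences of the Wilson limits of both libraries. The step into the blastocyst lies right of the dashed line for 9 cow members and 6 pig members, while DSP and PPL lie on the left at the cow 2-4 cell to 8-16 cell step.

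Of the 8 members found in both tables, 6 rose from oocyte to blastocyst in both species (KRT8, KRT18, DSP, DSG2, JUP and PKP2). At the morula to blastocyst step 5 rose in both (KRT8, KRT18, DSP, PKP2 and PPL), and at the 8-16 cell to morula step 1 did (DSG2). Of the symbols shared by both tables and compared in both species, 11.15% of 8567 were higher in both from oocyte to blastocyst, 4.185% of 8483 from morula to blastocyst and 1.105% of 8420 from the 8-16 cell embryo to the morula. Of the members, 7, 7 and 5 were compared in both species at these steps. JUP was called at the steps into the 8-16 cell embryo and the blastocyst in cow and into the morula in pig, and DSG2 at the step into the blastocyst in pig and not in cow. These differences between the species were not tested.

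As a share of all reads, the 4 keratins took 0.260% of the cow blastocyst library and the 3 keratins matched in pig took 0.631% of the pig one. In the 8 earlier libraries keratin reads numbered at most 20 per library. The desmosome members took 0.118% of the cow and 0.191% of the pig blastocyst library (6 and 5 genes). KRT8 and KRT18 together supplied 66.5% of all member reads in the cow blastocyst and 76.8% in the pig blastocyst. Summed over the members, the level was 59.8, 82.5, 71.8, 186 and 3776 RPM from oocyte to blastocyst in cow and 45.9, 39.6, 46.7, 242 and 8220 RPM in pig. The blastocyst library held 99.9% of the RPM summed over the 5 stages for cow KRT8 and KRT18, 86.3% for cow DSP, 68.3% for cow DSG2, 64.6% for cow PKP2 and 18.7% for cow PPL. In pig it held 99.8% for KRT18, 95.9% for DSG2, 83.4% for DSP, 78.3% for PKP2, 74.2% for JUP and 56.6% for PPL.

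**Figure D5:**
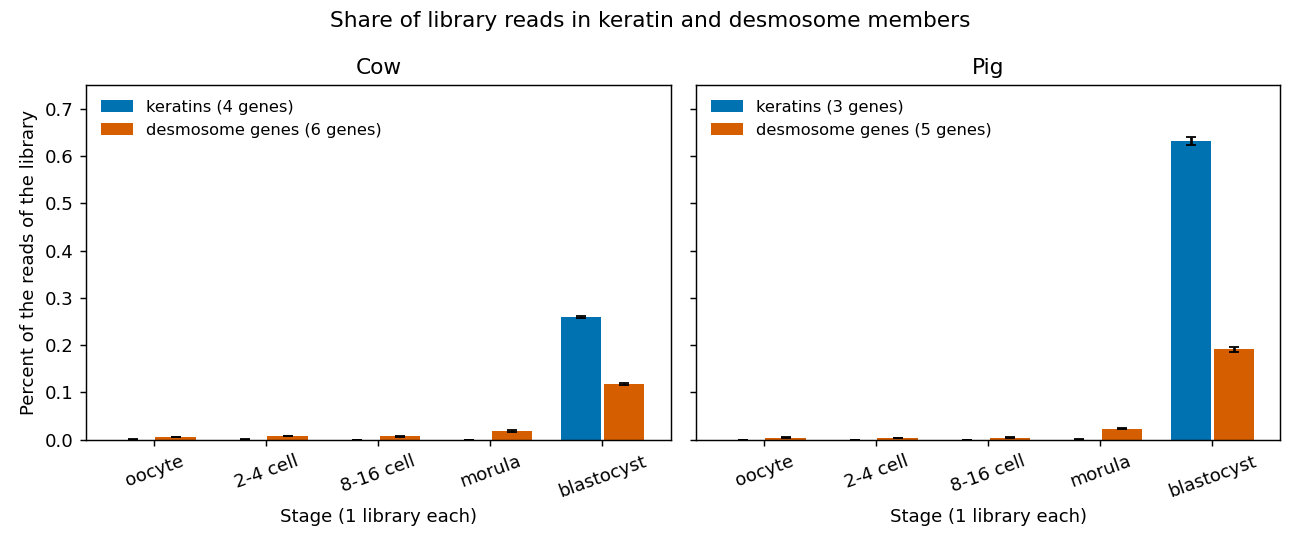
Percent of the reads of each library that fell on the keratin members (blue) and the desmosome members (orange) in cow (left) and pig (right), 1 library per bar, with 95% Wilson bars. Keratin bars are not visible before the blastocyst, where they reach 0.260% in cow and 0.631% in pig. Desmosome bars reach 0.118% and 0.191%.

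Other genes of the desmosome were counted in the same way. Beside this and the later lists, all genes compared from oocyte to blastocyst gave 21.8% higher and 18.4% lower in cow. In pig they gave 26.0% higher and 19.2% lower, and no list was tested against these shares. Of 11 further desmosome genes, 7 were compared from oocyte to blastocyst in cow, of which 3 rose (DSG3, DSG4 and PERP) and 0 fell, with a median of 1.93 (1.56 with 0 reads at the floor). In pig 9 were compared, of which 7 rose (DSC3, DSG3, PKP1, PKP3, PKP4, PERP and EVPL) and 1 fell (DSG1), with a median of 3.11 (2.53 with 0 reads at the floor). The pig rows of PKP3, PKP4 and EVPL overlap rows on the other strand (ANO9, CCDC148 and CDK3), so their reads cannot be told apart there. PERP, a membrane protein of desmosomes, stood at 8.52, 12.2, 5.89, 17.7 and 103 RPM in cow and 0.296, 0.483, 2.84, 34.3 and 481 RPM in pig. It rose 12.1-fold in cow (8.89 to 16.8) and 1625-fold in pig (291 to 64204, from 1 oocyte read). PKP4, an armadillo protein also found at adherens junctions, stood at 96.1, 131, 44.2, 37.2 and 31.0 RPM in cow and 32.9, 48.1, 48.6, 92.2 and 177 RPM in pig. It rose in pig (2.39) and was not called in cow (-1.60). DSG1, which is named here after its values were seen, stood at 0.406, 0, 0.184, 20.5 and 4.37 RPM in cow and at 5.92, 12.8, 19.6, 5.99 and 0 RPM in pig. Its highest library was thus the morula in cow and the 8-16 cell embryo in pig.

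Keratins outside the list had few reads. Of 44 other keratin rows in cow, 28 had no reads in any library, 11 reached 1 RPM in at least 1 library and 1 reached 10 RPM. That row was KRT5, a keratin of basal epidermis, at 18.7, 33.6, 6.07, 9.75 and 4.23 RPM, lowest in the blastocyst. Of 34 other keratin rows in pig, 28 had no reads, 5 reached 1 RPM and 0 reached 10 RPM. From oocyte to blastocyst 3 of 5 compared rose in cow (KRT1, KRT15 and KRT80) and 2 of 4 in pig (KRT10 and KRT14). KRT80 stood at 9.59 RPM in the cow blastocyst and KRT14 at 5.63 RPM in the pig blastocyst. Vimentin (VIM), the intermediate filament protein of mesenchyme, chosen after its values were seen, stood at 0 reads in both blastocyst libraries and at no more than 3.79 RPM in any library.

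Among other filament and junction genes, 1 of 11 compared genes listed as non-keratin intermediate filament genes rose (PRPH) and 1 fell (NEFL) from oocyte to blastocyst in cow. In pig 0 of 8 rose and 1 fell (NEFH). BFSP1, which rose in both species, is not in this list and is counted below with the plakins and cytolinkers. NEFL went from 64.1 to 2.61 RPM in cow. The nuclear lamin LMNB1 was not called in either species (23.7 to 52.9 RPM in cow, 163 to 59.5 RPM in pig). Of the genes listed as other plakins and cytolinkers 3 of 7 rose in cow (PPHLN1, BFSP1 and KAZN) and 2 of 6 in pig (PLEC and BFSP1). The pig PLEC row overlaps IQANK1 and MAPK15 on the other strand. BFSP1, an intermediate filament protein of the lens, stood at 0.406 RPM in the cow oocyte and 20.1 RPM in the cow blastocyst, and at 0 and 30.6 RPM in those of pig. Of the hemidesmosome genes, which anchor keratin to the basement membrane, 1 of 6 rose in cow (CD151) and 2 fell (ITGB4 and LAMA3), and 2 of 6 rose in pig (COL17A1 and CD151) and 1 fell (LAMA3). CD151, a tetraspanin that binds laminin receptors, rose at least 57.8-fold to 35.2 RPM in cow and 222-fold (143 to 363) to 1312 RPM in pig. The pig CD151 row spans 56162 bases, against 4950 in cow, and overlaps 3 rows on the other strand (SLC25A22, CHID1 and 1 without a symbol), so their reads cannot be told apart there. The pig COL17A1 row likewise overlaps SLK on the other strand. LAMA3, a laminin chain whose row overlaps 1 on the other strand in each species, stood at 67.3 RPM in the cow oocyte and 0.353 RPM in the cow blastocyst, and at 102 and 3.22 RPM in those of pig.

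Of the trophectoderm markers 10 were compared in cow, of which 8 rose from oocyte to blastocyst and 0 fell (median 3.99), and of 11 compared in pig 9 rose and 1 fell (EOMES). From the 2-4 cell to the 8-16 cell embryo in cow 4 of 10 markers rose and 0 fell, while 2 members rose and 2 fell. From the 8-16 cell embryo to the morula in cow 0 of 10 markers rose and 2 fell, while 1 member rose and 0 fell. From morula to blastocyst 5 of 10 markers rose in cow and 7 of 10 in pig, with 0 lower. Their summed level was 59.8, 57.7, 456, 417 and 985 RPM in cow (12 genes) and 127, 155, 305, 851 and 1614 RPM in pig (12 genes). EOMES was at 0 in both blastocyst libraries and HAND1 in the pig one. GATA3, a trophectoderm transcription factor, stood at 3.45, 3.83, 0.552, 1.28 and 78.8 RPM in cow and 0, 1.69, 3.47, 0.999 and 173 RPM in pig. TFAP2C, another, stood at 232 RPM in the cow 8-16 cell embryo and 183 RPM in the pig one, where KRT8 and KRT18 were at or below the floor. Its highest library was the 8-16 cell embryo in cow and the morula in pig (502 RPM). In the blastocyst TFAP2C stood at 105 RPM in cow and 346 RPM in pig. GATA2, TEAD4, KLF5 and GRHL1 also rose from oocyte to blastocyst in both species, and KLF5 reached 449 RPM in the cow and 529 RPM in the pig blastocyst. TEAD4 was highest in the morula in both species, at 17.7 RPM in cow and 47.0 RPM in pig. The pig GATA2 row overlaps EEFSEC on the other strand.

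Markers of other cell types were counted and summed in the same way. Of the compared primitive endoderm markers 5 of 6 rose from oocyte to blastocyst in cow (median 4.08) and 0 fell, and 2 of 5 rose and 1 fell in pig. Of the inner cell mass markers 4 of 6 rose in cow (median 3.07) and 0 fell, and 1 of 3 rose and 1 fell in pig. The cow rises are thus not limited to the trophectoderm list. From morula to blastocyst 4 of 6 primitive endoderm markers rose in cow and 2 of 5 in pig, while 0 inner cell mass markers rose and 1 of 6 fell in cow and 3 of 5 in pig. Primitive endoderm markers also had their highest sum in the blastocyst, at 9.13, 7.21, 233, 367 and 582 RPM in cow (8 genes, FOXA2 at 0 in the blastocyst) and 40.0, 33.3, 48.0, 249 and 369 RPM in pig (7 genes, SOX17 and FOXA2 at 0). Their part in the members' levels was not tested. Inner cell mass markers stood at 91.3, 151, 1184, 367 and 253 RPM in cow (6 genes) and 378, 104, 205, 268 and 92.5 RPM in pig (5 genes, with NANOG, SOX2 and PRDM14 at 0 in the blastocyst). Cumulus cell markers stood at 344, 350, 112, 94.6 and 104 RPM in cow (13 genes) and 60.7, 52.7, 158, 135 and 51.7 RPM in pig (9 genes), with no blastocyst maximum in either species. Of the compared cumulus markers 2 of 8 rose and 3 fell from oocyte to blastocyst in cow, and 3 of 6 rose and 1 fell in pig. Keratinocyte markers stood at 18.7, 33.6, 8.10, 10.3 and 9.94 RPM in cow (11 genes, 8 of them at 0 in the blastocyst) and 0, 0, 0.948, 2.66 and 11.3 RPM in pig (5 genes, KRT1 and KRT2 at 0), and the part of the pig blastocyst maximum in the members was not tested. Fibroblast markers lay between 2.93 and 25.1 RPM in cow and between 5.90 and 13.3 RPM in pig (7 genes each).

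The members were last set against other genes by the likeness of their profiles. The measure was the root mean square difference of log2(RPM + 1) over the 10 libraries, centred within a species, among 6279 symbols of both tables with at least 10 RPM in 1 library of each. It covers 6 members, describes these libraries only and carries no test. KRT8 and KRT18 were each other's nearest gene at 0.68, followed by CYP2S1 at 1.50 from KRT8 and 1.35 from KRT18. CYP2S1, a cytochrome P450, reached 179 RPM in the cow and 622 RPM in the pig blastocyst. The third places were held by CTSD for KRT8 (1.86) and S100A14 for KRT18 (1.47). The genes nearest to DSP were RAB25 (0.53), LYN (0.60) and LRRK1 (0.61), and those nearest to DSG2 were GM2A (0.58), ADGRG6 (0.81) and EGFR (0.82). The genes nearest to JUP were the ribosomal protein genes RPS18 (0.53) and RPS21 (0.64) and XPNPEP2 (0.64), and those nearest to PKP2 were PRICKLE3 (0.52), TNFRSF21 (0.54) and OTUD7B (0.56). Among the members the next pair after KRT8 and KRT18 was JUP and PKP2 at 0.78, then DSG2 and JUP at 1.18, and the farthest were KRT8 and PKP2 at 3.01.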

How the data were processed

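RNA sequencing of 10 libraries (5 stages of 2 species, 1 library per group) was analysed. Per the labels' protocols, RNA was isolated with PicoPure, amplified with the Ovation RNA-Seq System V2 and amplified again as libraries by 8 PCR cycles. The submitters' processing notes name Trim Galore 0.6.4, HISAT2 2.1.0 and the builds UMD3.1 and Sscrofa11.1. The counting tool, annotation, strand setting and duplicate removal are not given in the sources used here. Amplification before counting copies molecules, which intervals from reads do not cover.

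The authors deposited 1 table per species of log2 reads per 1000000 library reads (log2 RPM) per gene. The second lowest value of a column is worth 1 read, and of all higher values in a library at least 99.977% equal a whole number of reads within 0.05 read. The lowest value, shared by genes without reads, is 0.9 of a read. Reads were recovered from these steps with Python 3.11.15, numpy 2.4.6, pandas 2.3.3 and scipy 1.17.1. Levels show 0 reads as 0, and changes use the deposited values with a pseudocount of 1 and a minimum of 1 RPM. No test was possible with 1 library per group, and no count model was run. The calling script was tested on simulated data.

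The members and lists were chosen with earlier results of these data known. Named from other lists were genes called from oocyte to blastocyst in both species, or otherwise up to 4 with the highest RPM. Other names are said to be chosen after their values were seen, or complete a count. No sequences are printed, and no promoter motifs were searched.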

Additional observations from a re-analysis of the deposited data

Results flagged for a closer look

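The following desmosome genes differed in direction between cow and pig, with 1 library per stage, so that the difference was not tested in any of them. DSC3 changed by -4.60 (log2 scale) from morula to blastocyst in cow (24.9 to 0.0705 RPM) and differed by 1.29 in pig (271 to 663 RPM). DSG1 rose by 4.18 from the 8-16 cell embryo to the morula in cow (0.184 to 20.5 RPM) and differed by -1.56 in pig (19.6 to 5.99 RPM). From oocyte to blastocyst DSG1 differed by 1.93 in cow (0.406 to 4.37 RPM) and fell in pig, with a change of -2.48 (5.92 to 0 RPM). PKP4 differed by -1.60 from oocyte to blastocyst in cow (96.1 to 31.0 RPM) and rose by 2.39 in pig (32.9 to 177 RPM). The pig PKP4 row overlaps CCDC148 on the other strand, and the pig DSC3 row is longer than the cow one, as described above; their part in these differences was not tested.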

How the results depend on the processing

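The numbers of members called were recomputed under 11 alternatives (10 planned, and 0 reads as 0 RPM, chosen after seeing the data). Of 110 recomputed numbers 95 stayed within 1.5 times the reported one and 15 did not. The 748 recomputed changes of compared members include those not called, and no called change reversed its sign. Part of this was fixed in advance. Each member symbol had 1 row, so summing repeated symbols could move no number. Dropping the minimum could not either, since genes below 1 RPM in both stages cannot differ by 2. Thresholds, minimums and pseudocounts cannot reverse a sign. At the morula to blastocyst and oocyte to blastocyst steps no number moved by more than 1.5 times. From morula to blastocyst, a threshold of 3 and a pseudocount of 5 each still left DSC2, PKP2 and PPL uncalled in cow. In pig a threshold of 3 left PKP2 and PPL uncalled, and a pseudocount of 5 left PPL uncalled. A threshold of 1 gave 1 member for oocyte to 2-4 cell in cow and 1 in pig, 7 for 2-4 cell to 8-16 cell in cow and 2 in pig, and 3 for 8-16 cell to morula in cow and 5 in pig. A threshold of 3 gave 2 for 2-4 cell to 8-16 cell and 0 for 8-16 cell to morula in cow. A pseudocount of 5 gave 1 for 2-4 cell to 8-16 cell in cow. A pseudocount of 0.1 gave 3 for 8-16 cell to morula in cow and 1 for oocyte to 2-4 cell in pig. Median-of-ratios scaling, quantile normalisation, scaling to non-mitochondrial reads and 0 reads as 0 RPM each gave 2 for 8-16 cell to morula in cow, where PPL was added. Except for the thresholds, whose construction changes the number called, the cause was not tested. From oocyte to blastocyst the median of all genes shifted by 0.42 in cow with scaling to non-mitochondrial reads and by -0.41 in pig with quantile normalisation. Below the floor of 3 reads a level was not detectable at this depth. No paired analysis was possible because each group had 1 library.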
